A study of Mus musculus with 12 samples.

Results

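The E2F transcription factors and the retinoblastoma proteins that hold them in check were followed through 3 mouse melanocytic lines with and without SX-682, an antagonist of the chemokine receptors CXCR1 and CXCR2. The family was taken as 10 genes by symbol, out of 34513 in the count table: the activators E2f1, E2f2 and E2f3, the canonical repressors E2f4, E2f5 and E2f6, the atypical repressors E2f7 and E2f8, and the pocket protein genes Rb1 and Rbl1. Each symbol had a single row, and all 10 genes passed the filter on low counts. E2F factors bind promoters of genes for DNA replication and cell division, most of them as dimers with a DP partner, and pocket proteins silence them until cyclin-dependent kinases phosphorylate the pocket protein at the G1/S boundary. E2f7 and E2f8 need no DP partner and no pocket protein, are themselves switched on by E2F activators, and repress the same promoters later in S phase. E2f4 and E2f5 act with the pocket proteins in resting and early G1 cells, whereas E2f6 works without them, in a Polycomb complex.

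RNA-seq libraries came from Melan-A, a nontumorigenic melanocyte line, and from B16F0 and B16F10, melanoma lines of which B16F10 is the metastatic variant. Each line was cultured without treatment, which served as the control, and with SX-682, and each of the 6 groups held 2 libraries. The RNA-seq dose and exposure time, and whether the libraries came from separate cultures, are not given in the sources used here, so p-values measure only the spread between these libraries. The question of the comparison was what SX-682 does to the cells of a line in the absence of stromal and immune cells.

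Library totals lay between 48876982 and 85322092 counts, and the members were covered by 317 to 9074 counts per library. Levels are given as CPM, the counts of a gene per standard library size after TMM scaling. Differences are log2 fold changes with their standard error (SE), and adjusted p-values are from edgeR's quasi-likelihood F-test with Benjamini-Hochberg adjustment over 18338 genes; a gene was called at an adjusted p under 0.05. The 7 melanocytic markers summed to 1344 to 1374 CPM in untreated Melan-A, with Tyr, the tyrosinase gene, at 0.892 and 0.760 CPM, and to 18580 to 24470 CPM in the untreated B16 lines, where all 7 were above 1 CPM. With SX-682 the sum was 1346 to 1355 CPM in Melan-A, 15770 to 15960 CPM in B16F0 and 14950 to 15190 CPM in B16F10. Within the Melan-A sum, 2 of the 7 markers were called higher with SX-682 and 4 lower, beside 23.4% and 24.7% of all genes. In B16F0 and in B16F10 all 7 were called lower, beside 25.0% and 25.3% of all genes. In untreated Melan-A, Sox10 alone was at 654.9 and 685.3 CPM, and Pmel was at 7.53 and 8.70 CPM. The 6 fibroblast markers summed to 113.8 to 115.4 CPM in untreated Melan-A and 93.46 to 94.82 CPM with SX-682, and to no more than 16.78 CPM in any B16 library. The sums of the leukocyte, keratinocyte and endothelial markers did not pass 9.202 CPM in any library. The mitochondrial share of counts was higher with SX-682 in every line, 1.15% against 0.957% and 0.968% in Melan-A, 0.847% and 0.863% against 0.756% and 0.779% in B16F0, and 1.24% against 1.02% and 0.989% in B16F10. The part of these shifts in the results was not tested.

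Several E2F genes are known targets of E2Fs, so the promoter windows of the members were searched for E2F strings, and stretches from 5 genes that were lower with SX-682 in all 3 lines are shown. The link between these strings and the change was not tested. Of the 10 members, 7 had a promoter window in the RefSeq table (build GRCm38.p6, 250 bases before to 50 bases after the transcription start); E2f4, E2f5 and Rb1 had no entry. An E2F site was searched as TTTCCCGC, TTTCGCGC, TTTGCCGC or TTTGGCGC on both strands, and was found at 4 of these 7 genes (57.1%) against 704 of all 27025 genes with a window (2.6%). The site is in capitals in the first 4 sequences, which are written on the strand of the gene and come from chr13:29986064-29986143 on the minus strand (positions -80 to -1 from the start of E2f3), chr10:110745209-110745288 on the plus strand (upstream part of the E2f7 window), chr2:157204535-157204614 on the minus strand (-80 to -1, Rbl1) and chr4:136172303-136172323 on the plus strand (+30 to +50, E2f2, ahead of the gene start in the count table). The last, chr7:48881597-48881653 on the minus strand (-57 to -1, E2f8), held no E2F site, and its capitals mark a CHR element (TTTGAA on either strand), the motif bound by the MuvB complexes that control G2/M genes.
E2f3: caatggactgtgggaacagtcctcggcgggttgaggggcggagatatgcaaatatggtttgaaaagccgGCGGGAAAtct
E2f7: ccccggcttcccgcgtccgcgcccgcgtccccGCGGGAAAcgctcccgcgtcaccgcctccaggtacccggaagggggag
Rbl1: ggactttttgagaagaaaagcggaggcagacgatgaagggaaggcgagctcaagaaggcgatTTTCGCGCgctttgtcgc
E2f2: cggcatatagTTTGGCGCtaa
E2f8: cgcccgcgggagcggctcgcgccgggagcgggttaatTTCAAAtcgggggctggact
The sites lay 11 to 4 bases before the start of E2f3, 198 to 191 bases before that of E2f7 and 18 to 11 bases before that of Rbl1. No E2F site overlapped a CHR element. A CHR element was present in a window of 3 of the 7 members (E2f2, E2f3 and E2f8; 42.9%), against 20.2% of all genes with a window. The windows of E2f1 and E2f6 held neither string, and E2f6 was lower with SX-682 in all 3 lines. The E2f1 window was set on a start at chr2:154569426, inside the counted gene, which begins at 154569892 on the minus strand. The bases ahead of that gene start were not searched. A match describes the letters of the window and is not evidence of binding.

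Untreated, the 3 lines had the same leading member and different ones behind it. Per kb of exon, the scale on which genes can be set beside each other, E2f1 was the highest of the 10 in each line, at means of 31.6 (Melan-A), 32.2 (B16F0) and 31.5 CPM per kb (B16F10). In Melan-A it was followed by E2f3 at 11.2 and E2f6 at 11.1 CPM per kb, whose libraries overlapped, then by E2f4 at 9.40, Rbl1 at 8.17, E2f8 at 7.16, E2f7 at 5.10, E2f5 at 4.87 (overlapping E2f7), Rb1 at 3.38 and E2f2 at 2.98. In B16F0 the order behind E2f1 was E2f4 at 19.98, Rbl1 at 16.6, E2f5 at 14.5, E2f3 at 9.04 and E2f6 at 9.01 (overlapping), E2f2 at 6.25, Rb1 at 4.95, E2f8 at 4.17 and E2f7 at 2.33 CPM per kb. In B16F10 it was E2f4 at 16.2, Rbl1 at 12.1, E2f6 at 9.58, Rb1 at 7.39, E2f3 at 6.87, E2f8 at 6.07, E2f5 at 5.16, E2f2 at 4.55 and E2f7 at 3.51 CPM per kb. E2f4 and Rbl1, which encode a repressor E2F and the pocket protein p107 that it binds, thus stood directly behind E2f1 in both melanoma lines, and behind E2f1, E2f3 and E2f6 in Melan-A.

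**Figure D1:**
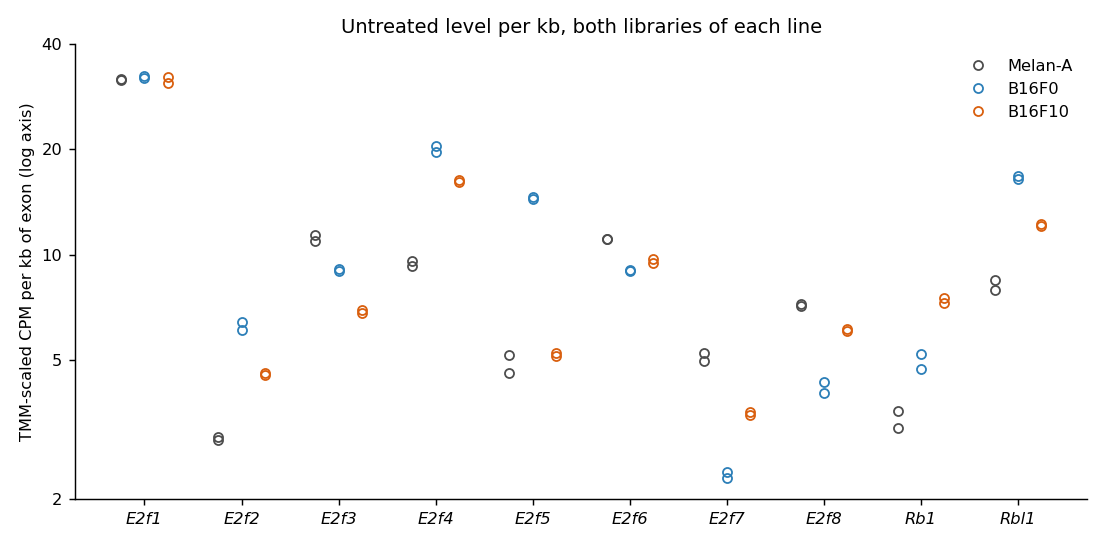
Untreated level of the 10 members per kb of exon (TMM-scaled CPM per kb, log axis); each circle is 1 library, 2 per line. E2f1 sits between 30.9 and 32.4 CPM per kb in all 6 libraries, whereas E2f5 separates B16F0 from the other lines and E2f7 is highest in Melan-A.

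Against untreated Melan-A, 5 members were higher and 4 lower in untreated B16F0, where 35.3% of all genes tested were higher and 40.6% lower, and 4 were higher and 4 lower in untreated B16F10, where the shares over all genes were 33.4% and 40.8%. Between the melanoma lines, 3 members were higher and 5 lower in B16F10, against 30.8% and 31.2% of all genes. These counts are not far from the background, and the levels of the single genes carry the description. The untreated libraries are also the controls of the SX-682 comparisons.

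Among the activators, E2f1 was not called between any pair of untreated lines: the log2 difference from Melan-A was 0.03 in B16F0 (95% interval -0.04 to 0.09) and -0.00 in B16F10 (-0.07 to 0.06), and B16F10 was 0.03 below B16F0 (-0.10 to 0.04). E2f2 was higher than in Melan-A in both melanoma lines, by 1.07 in B16F0 (SE 0.0653, adjusted p = 3.45e-15) and 0.61 in B16F10 (SE 0.0672, adjusted p = 2.09e-09), and E2f3 was lower in both, with log2 differences of -0.30 (SE 0.0414, adjusted p = 1.3e-07) and -0.70 (SE 0.0429, adjusted p = 4.34e-15). The activators therefore did not shift together. Of the canonical repressors, E2f4 was 2.12-fold higher in B16F0 and 1.73-fold higher in B16F10 than in Melan-A (log2 1.09 and 0.79, adjusted p = 2.76e-18 and 1.45e-14). E2f5 was 2.98-fold higher in B16F0 than in Melan-A (log2 1.58, SE 0.0702, adjusted p = 1.58e-18), while B16F10 was not called apart from Melan-A (0.08, 95% interval -0.08 to 0.24, adjusted p = 0.343), and the test between the melanoma lines gave -1.49 (SE 0.0727, adjusted p = 3.41e-17).

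The atypical repressors were lower in the melanoma lines. E2f7 was 2.19-fold lower in B16F0 and 1.45-fold lower in B16F10 than in Melan-A (log2 -1.13 and -0.54, adjusted p = 1.47e-17 and 2.78e-10), and E2f8 was 1.72-fold and 1.18-fold lower (-0.78 and -0.24, adjusted p = 9.34e-12 and 0.00181). B16F10 held more than B16F0 of both, by 0.59 and 0.54 on the log2 scale (adjusted p = 2.63e-10 and 4.75e-08). Rb1, which encodes the retinoblastoma protein, rose along the order Melan-A, B16F0, B16F10: it was 1.46-fold higher in B16F0 and 2.18-fold higher in B16F10 than in Melan-A (adjusted p = 7.55e-10 and 2.52e-17), and higher in B16F10 than in B16F0 by 0.58 (SE 0.0550, adjusted p = 1.54e-10). Rbl1 was 2.03-fold and 1.48-fold higher than in Melan-A (adjusted p = 7e-21 and 2.72e-14), with the peak in B16F0, as for E2f4. The E2f6 difference between the melanoma lines was 0.09 (SE 0.0406) and missed the threshold at an adjusted p of 0.0620. Both melanoma lines held less E2f6 than Melan-A, with log2 differences of -0.30 for B16F0 and -0.21 for B16F10 (adjusted p = 6.12e-08 and 1.98e-05).

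With SX-682, most of the family fell in every line while Rb1 rose. In Melan-A 7 of the 10 members were lower and 2 higher, beside 24.7% and 23.4% of all genes tested; in B16F0 8 were lower and 1 higher, beside 25.0% and 25.1%; and in B16F10 8 were lower and 2 higher, beside 25.3% and 25.5%. E2f2, E2f3, E2f4, E2f6, E2f7, E2f8 and Rbl1 were lower in all 3 lines, which 11.7% of all genes were, and Rb1 was higher in all 3, as 11.3% of genes were. E2f1 and E2f5 differed in call between lines. The median log2 fold change of the members was -0.62 for Melan-A, -0.50 for B16F0 and -0.55 for B16F10, and that of all genes was 0 each time. TMM scaling places the bulk of genes near 0, so every change is relative to that bulk. A shift of total RNA per cell would not be seen. In RNA of whole cultures, fewer cells in a phase of the cycle and less RNA of a gene per cell cannot be told apart.

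**Figure D2:**
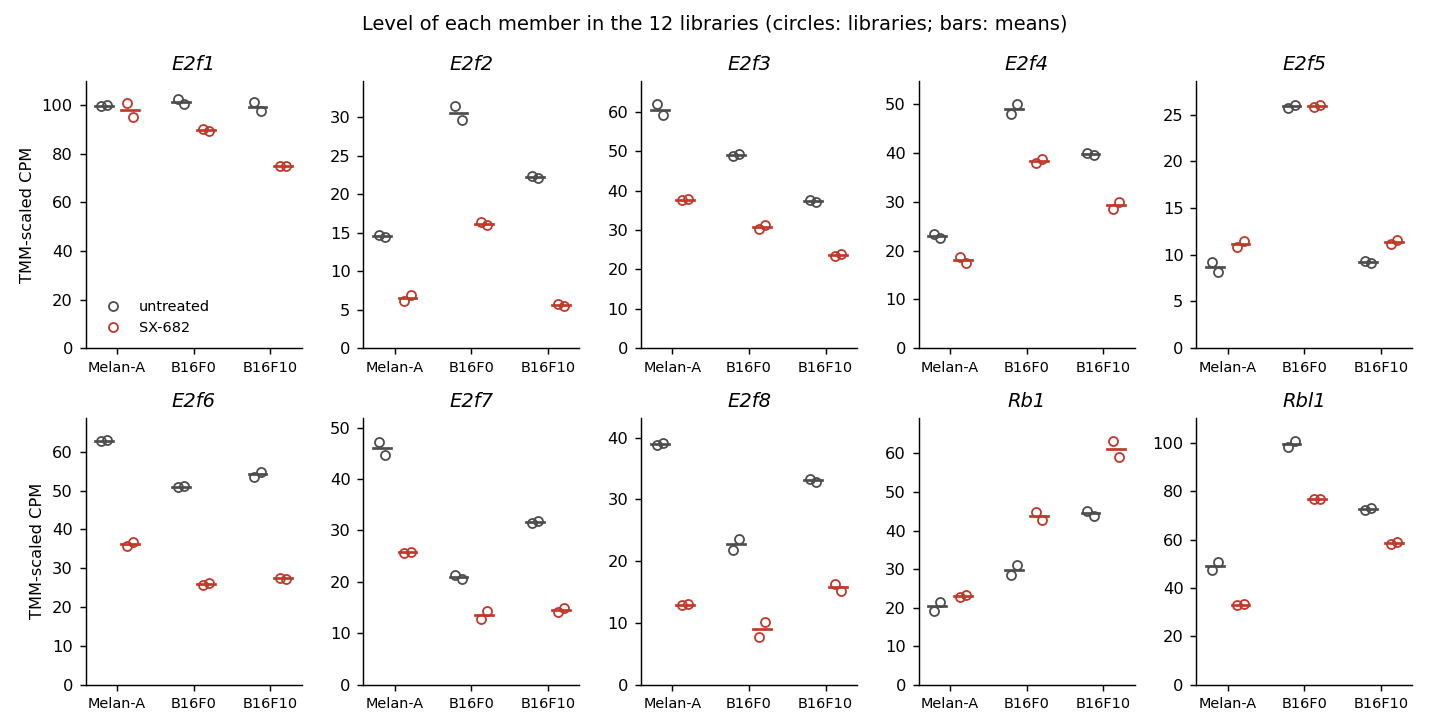
TMM-scaled CPM of the 10 members in the 12 libraries, each panel on its own axis from 0; circles are libraries, bars the mean of 2. The SX-682 libraries of E2f2, E2f3, E2f4, E2f6, E2f7, E2f8 and Rbl1 lie below the untreated ones in all 3 lines, and those of Rb1 above.

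E2f2 was the activator that changed most. It stood at 14.7 and 14.4 CPM in untreated Melan-A and 6.07 and 6.89 CPM with SX-682, at 31.4 and 29.65 against 16.3 and 15.95 CPM in B16F0, and at 22.4 and 22.1 against 5.71 and 5.42 CPM in B16F10. Treated and untreated libraries were far apart in each line, and treated B16F10 held the lowest values of all. The log2 fold change was -1.16 in Melan-A (SE 0.0758, adjusted p = 9.3e-14), -0.92 in B16F0 (SE 0.0674, adjusted p = 1.21e-12) and -2.00 in B16F10 (SE 0.0795, adjusted p = 6.06e-19), a 3.99-fold fall in the last. The change differed among the lines (adjusted p = 3.2e-09) and was larger in B16F10 than in B16F0 by 1.08 on the log2 scale (SE 0.106, adjusted p = 2.95e-09). The mean of the melanoma lines minus Melan-A was -0.30 (adjusted p = 0.0131), and without the second SX-682 library of Melan-A it was -0.21 (adjusted p = 0.185).

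E2f3 fell by nearly the same factor in each line. Its levels were 62.1 and 59.15 CPM in untreated Melan-A and 37.6 and 37.8 CPM with SX-682, 48.9 and 49.3 against 30.3 and 31.3 CPM in B16F0, and 37.6 and 37.03 against 23.4 and 23.8 CPM in B16F10. Treated Melan-A was therefore at the level of untreated B16F10. The log2 fold changes were -0.69 (SE 0.0423), -0.67 (SE 0.0454) and -0.66 (SE 0.0480), with adjusted p-values of 2.67e-14, 1.81e-13 and 7.69e-13. The difference among the lines spanned 0.03 and was not called (adjusted p = 0.958); the mean of the melanoma lines minus Melan-A was 0.02, with a 95% interval of -0.09 to 0.13.

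E2f1, the most abundant member, moved least among the activators. In Melan-A it was at 99.4 and 99.9 CPM untreated and 101 and 95.15 CPM with SX-682, so that the groups overlapped, and the log2 fold change was -0.02 (95% interval -0.09 to 0.04, adjusted p = 0.607). In B16F0 it went from 102.3 and 100.6 to 90.2 and 89.4 CPM, a log2 fold change of -0.18 (SE 0.0339, adjusted p = 6.27e-05), and in B16F10 from 101.3 and 97.4 CPM to 75.02 and 75.03 CPM, -0.41 (SE 0.0345, adjusted p = 2.44e-11). E2f1 thus began at the same level in the 3 lines and ended lower in the melanoma lines. The test of the difference among lines gave an adjusted p of 4.22e-07, the melanoma mean lay 0.27 below Melan-A on the log2 scale (SE 0.0407, adjusted p = 3.81e-06), and B16F10 lay 0.23 below B16F0 (SE 0.0484, adjusted p = 4.19e-04).

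Of the canonical repressors, E2f6 had the largest change. It was at 62.8 and 63.0 CPM in untreated Melan-A and 35.8 and 36.65 CPM with SX-682, at 50.95 and 51.1 against 25.6 and 26.3 CPM in B16F0, and at 53.6 and 54.9 against 27.5 and 27.3 CPM in B16F10. The log2 fold changes were -0.80 (SE 0.0404), -0.98 (SE 0.0442) and -0.99 (SE 0.0438), 1.97-fold and 1.98-fold lower in the melanoma lines, with adjusted p-values of 3.28e-16, 1.76e-17 and 8.31e-18. The lines differed in the size of the fall by up to 0.19 (adjusted p = 0.0115); without the second SX-682 library of Melan-A the adjusted p was 0.0634.

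E2f4, whose protein is the main E2F of resting cells, fell by a modest and even amount. Its levels went from 23.4 and 22.7 to 18.8 and 17.5 CPM in Melan-A, from 47.95 and 50.04 to 37.9 and 38.8 CPM in B16F0, and from 40.04 and 39.5 to 28.45 and 30.1 CPM in B16F10. The groups did not overlap in any line, and the melanoma lines with SX-682 still held more E2f4 than untreated Melan-A. The log2 fold changes were -0.35 (SE 0.0539, adjusted p = 2.67e-06), -0.35 (SE 0.0492, adjusted p = 4.6e-07) and -0.44 (SE 0.0514, adjusted p = 1.31e-08), and their difference among the lines was not called (range 0.10, adjusted p = 0.468).

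E2f5 was the repressor that did not fall. It was at 9.20 and 8.18 CPM in untreated Melan-A and 10.8 and 11.5 CPM with SX-682, a log2 fold change of 0.36 (SE 0.0749, adjusted p = 1.76e-04), and at 9.29 and 9.11 against 11.2 and 11.5 CPM in B16F10, 0.30 (SE 0.0793, adjusted p = 0.00176). In B16F0, where its untreated level was highest at 25.7 and 26.1 CPM, the treated libraries were at 25.85 and 26.05 CPM and overlapped them (0.005, 95% interval -0.13 to 0.14, adjusted p = 0.994). The change differed among the lines (range 0.35, adjusted p = 0.00681). B16F10 exceeded B16F0 by 0.30 (adjusted p = 0.0272), and this call was lost, at adjusted p-values of 0.0537 to 0.0956, when any 1 of the 8 B16 libraries other than the first SX-682 library of B16F10 was left out.

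The atypical repressors fell strongly. E2f8 had the largest fall of the family in Melan-A and in B16F0: it went from 38.7 and 39.2 to 12.85 and 13.03 CPM in Melan-A, from 21.85 and 23.6 to 7.80 and 10.2 CPM in B16F0, and from 33.3 and 32.9 to 16.3 and 15.2 CPM in B16F10. Treated libraries of every line lay below all untreated ones. The log2 fold changes were -1.59 (SE 0.0705, adjusted p = 1.39e-17), -1.35 (SE 0.0810, adjusted p = 1.2e-14) and -1.07 (SE 0.0726, adjusted p = 1.6e-13), that is 3.01-fold, 2.56-fold and 2.10-fold lower. The change differed among the lines (adjusted p = 3.52e-04), and the mean fall of the melanoma lines was smaller than that of Melan-A by 0.38 (SE 0.0897, adjusted p = 0.00110).

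The gap between B16F10 and B16F0 in the E2f8 change, 0.29 (SE 0.110, adjusted p = 0.0489), depended on single libraries. Leaving out 1 library at a time gave 0.083 to 0.469, the highest without the second SX-682 library of B16F0. It was 0.083 without the first SX-682 library of B16F0 (adjusted p = 0.692), 0.23 without the second control of B16F0 (0.185), 0.29 and 0.27 without the first and second controls of B16F10 (0.0874 and 0.124) and 0.23 without the first SX-682 library of B16F10 (0.204). Of the exonic bases of E2f8, 11.2% overlap Gm2788 on the opposite strand. The use of strand in the counting is not given in the sources used here, and Gm2788 itself stayed at or under 1.87 CPM.

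E2f7 went from 47.25 and 44.7 to 25.7 and 25.9 CPM in Melan-A, from 21.4 and 20.6 to 12.9 and 14.35 CPM in B16F0, and from 31.4 and 31.9 to 14.1 and 14.9 CPM in B16F10. Treated Melan-A stayed above untreated B16F0. The log2 fold changes were -0.83 (SE 0.0538, adjusted p = 7.64e-14), -0.63 (SE 0.0640, adjusted p = 1.11e-09) and -1.13 (SE 0.0613, adjusted p = 1e-15). They differed among the lines (adjusted p = 1.22e-04), and the fall in B16F10 exceeded that in B16F0 by 0.49 (SE 0.0891, adjusted p = 6.72e-05).

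The pocket protein genes moved in opposite directions. Rb1 was at 19.25 and 21.5 CPM in untreated Melan-A and 22.8 and 23.4 CPM with SX-682, at 28.4 and 31.1 against 44.9 and 42.7 CPM in B16F0, and at 45.2 and 43.7 against 63.1 and 59.2 CPM in B16F10. Treated B16F0 reached the level of untreated B16F10, and the treated B16F10 libraries were the highest of all 12. The log2 fold changes were 0.56 in B16F0 (SE 0.0555, adjusted p = 7.15e-10), 0.46 in B16F10 (SE 0.0526, adjusted p = 9.6e-09) and 0.18 in Melan-A (SE 0.0584, adjusted p = 0.0113). The Melan-A call was lost without the first control (0.11, adjusted p = 0.194) or the second SX-682 library (0.17, adjusted p = 0.0637) of that line. The rise was larger in the melanoma lines by 0.33 (SE 0.0698, adjusted p = 3.13e-04), and the difference among the 3 lines was called (adjusted p = 6.4e-04). Rcbtb2 and Lpar6 share 8.10% and 6.80% of the exonic bases of Rb1 on the opposite strand. Rcbtb2 was at log2 fold changes of -0.03, 0.18 and 0.25 in Melan-A, B16F0 and B16F10, and Lpar6 at -0.83, -0.39 and -0.74. Untreated means in the same order were 28.87, 14.45 and 21.62 CPM for Rcbtb2 and 6.16, 2.86 and 4.89 CPM for Lpar6. Rcbtb2 was thus above Rb1 in untreated Melan-A. The part of these genes in the Rb1 counts was not tested.

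Rbl1 went from 47.3 and 50.6 to 32.8 and 33.5 CPM in Melan-A, from 98.4 and 100.8 to 76.7 and 76.9 CPM in B16F0, and from 72.3 and 73.2 to 58.1 and 59.2 CPM in B16F10. The groups did not overlap in any line. The log2 fold changes were -0.56 (SE 0.0399, adjusted p = 6.01e-13), -0.38 (SE 0.0367, adjusted p = 5.8e-10) and -0.31 (SE 0.0383, adjusted p = 4.28e-08), with a larger fall in Melan-A than in the melanoma mean by 0.22 (SE 0.0479, adjusted p = 4.57e-04). The difference among the 3 lines was called at an adjusted p of 9.48e-04. In treated B16F10, Rb1 at a mean of 10.2 CPM per kb stood level with Rbl1 at 9.78, and their libraries overlapped; without treatment they were at 7.39 and 12.1 CPM per kb. Rbl2, the gene of the remaining pocket protein, p130, and no member, was 2.49-fold and 3.46-fold higher in untreated B16F0 and B16F10 than in Melan-A, and with SX-682 its log2 fold changes were 0.17 (adjusted p = 3.12e-04), -0.01 (adjusted p = 0.850) and -0.15 (adjusted p = 5.66e-04) in Melan-A, B16F0 and B16F10. Aktip and Gm45464 share 9.2% and 11.8% of the exonic bases of Rbl2 on the opposite strand. Gm45464 did not pass the filter on low counts. Aktip was at means of 19.99, 47.42 and 72.93 CPM in untreated Melan-A, B16F0 and B16F10, and 23.47, 43.46 and 90.45 CPM with SX-682. Its part in the Rbl2 counts was not tested.

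**Figure D3:**
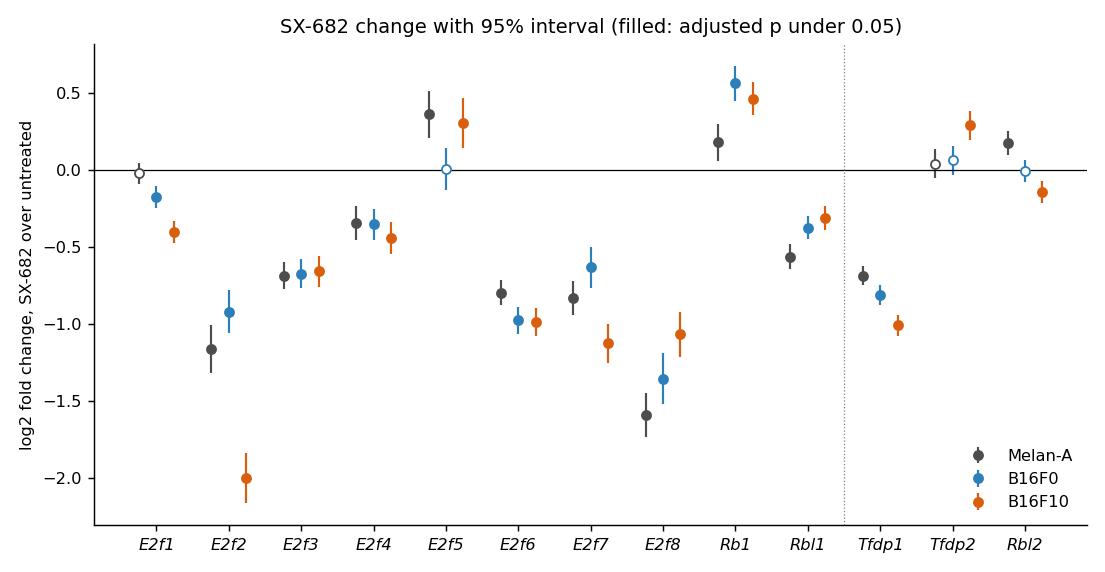
Log2 fold change of SX-682 over untreated libraries in Melan-A, B16F0 and B16F10 for the 10 members and, right of the dotted line, the partners Tfdp1, Tfdp2 and Rbl2; bars are 95% intervals and filled points have an adjusted p under 0.05. Of the members, E2f8 lies lowest in Melan-A and B16F0 and E2f2 in B16F10. Rb1 lies above 0 in the 3 lines, and E2f1 runs from -0.02 in Melan-A to -0.41 in B16F10.

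The difference of the change among the 3 lines was called for 8 of the 10 members, the exceptions being E2f3 and E2f4, in a table where 47.4% of all genes were called. For the mean of the melanoma lines minus Melan-A, 6 members were called, beside 35.8% of all genes: E2f1, E2f2 and E2f6 were lower in that difference, and E2f8, Rb1 and Rbl1 higher. For E2f2 this mean came from B16F10, since the B16F0 fall (-0.92) was smaller than that of Melan-A (-1.16), and its call was lost without the second SX-682 library of Melan-A, as given above. Between B16F10 and B16F0, 5 members were called, beside 30.3% of all genes: E2f1, E2f2 and E2f7 lower, and E2f5 and E2f8 higher with the limits given above.

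Activators and repressors were then contrasted by summing the CPM of each class, as a description without a test. The activator sum went from 176.2 and 173.4 to 144.7 and 139.8 CPM in Melan-A, from 182.5 and 179.6 to 136.9 and 136.6 CPM in B16F0, and from 161.3 and 156.5 to 104.2 and 104.3 CPM in B16F10. The canonical repressor sum went from 95.4 and 93.9 to 65.4 and 65.6 CPM, from 124.6 and 127.2 to 89.4 and 91.15 CPM, and from 102.9 and 103.5 to 67.1 and 68.9 CPM. The atypical sum went from 86.0 and 83.85 to 38.55 and 38.9 CPM, from 43.3 and 44.2 to 20.7 and 24.55 CPM, and from 64.7 in both to 30.4 and 30.1 CPM. Every class was lower with SX-682 in every line, and the atypical class had the smallest part of its untreated level left in each.

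The log2 ratio of the activator sum to the sum of all 5 repressors was higher by 0.49 with SX-682 in Melan-A, by 0.18 in B16F0 and by 0.17 in B16F10, and the treated libraries did not overlap the untreated ones in any line. The size of this shift depended on how the genes were weighed. Summed per kb of exon, it was 0.36 for Melan-A, 0.06 for B16F0 and 0.001 for B16F10, and treated and untreated libraries then overlapped in both melanoma lines (0.104 and 0.060 untreated, 0.102 and 0.065 treated in B16F10). Against E2f7 and E2f8 alone it was 0.84, 0.55 and 0.49. E2f1 made up most of the activator sum, and the direction of the ratio in the melanoma lines depended on it. With E2f2 and E2f3 alone as activators, an alternative chosen after seeing the data, the ratio changed by 0.02 in Melan-A, where the libraries overlapped. It changed by -0.18 in B16F0 and -0.26 in B16F10, where they did not. An exact permutation test of 2 against 2 libraries cannot go below p = 0.333, so none was run.

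**Figure D4:**
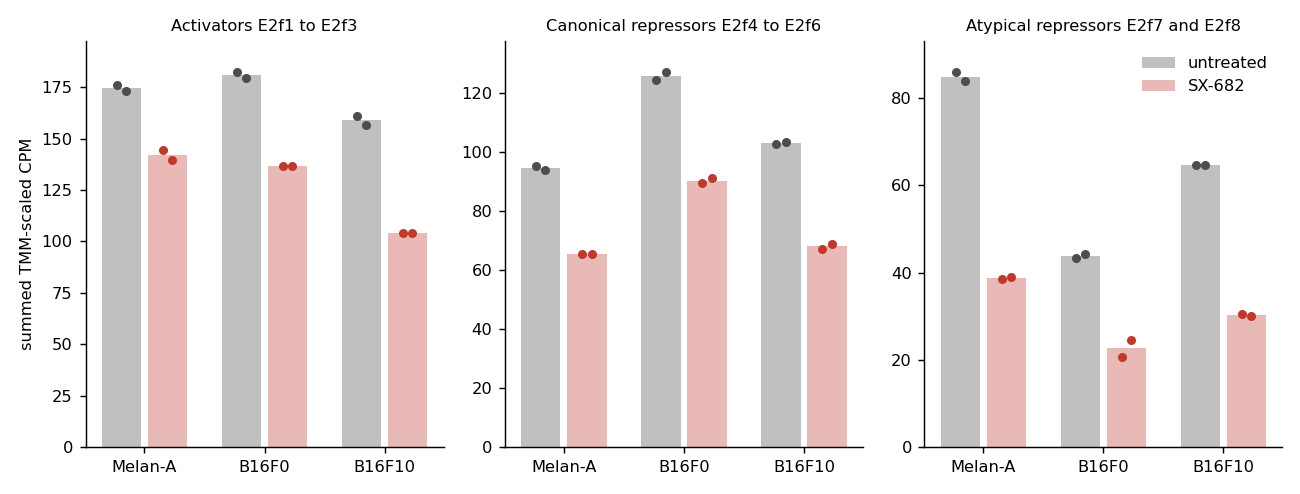
Summed TMM-scaled CPM of the activator, canonical repressor and atypical repressor E2Fs; bars are means of 2 libraries from 0 and points the libraries. All 3 classes are lower with SX-682 in each line; the atypical sum is highest in Melan-A, at 86.0 and 83.85 CPM untreated, and the canonical sum highest in B16F0.

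Of the DP partners, Tfdp1 fell in the 3 lines and Tfdp2 did not. Tfdp1 was at 104.4 and 104 CPM in untreated Melan-A and 64.3 and 65.3 CPM with SX-682, at 148.4 and 151.2 against 85.25 and 85.4 CPM in B16F0, and at 105.2 and 103.9 against 52.8 and 51.1 CPM in B16F10. Its log2 fold changes were -0.69, -0.81 and -1.01 (adjusted p = 2.88e-17, 3.83e-19 and 6.66e-21). Tfdp2 was at 0.04 in Melan-A and 0.06 in B16F0, which were not called (adjusted p = 0.505 and 0.291), and rose by 0.29 in B16F10 (adjusted p = 4.97e-06).

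The kinases that phosphorylate pocket proteins fell with the E2Fs. Of 8 genes of these cyclins and kinases, 8 were lower in Melan-A and in B16F10 and 7 in B16F0, none was higher, and 7 were lower in all 3 lines; the shares over all genes were 24.7%, 25.0% and 25.3% lower in the lines and 11.7% lower in all 3. The list medians were -0.52, -0.30 and -0.68 beside 0 for all genes. By the mean over the lines, Ccne2, a cyclin E gene and E2F target, had the largest fall of the list (-1.72, -1.96 and -2.26 in Melan-A, B16F0 and B16F10), followed by Ccnd1, the cyclin D1 gene (-0.56, -0.79 and -1.11). The smallest mean falls among those lower in all 3 lines were those of Cdk4 (-0.09, -0.10 and -0.23) and Ccnd3 (-0.34, -0.13 and -0.35). Of 7 kinase inhibitor genes, 4 were higher and 3 lower in Melan-A, 2 higher and 1 lower in B16F0, and 1 higher and 1 lower in B16F10. The share of all genes was 23.4% to 25.5% in each direction. The counts in the B16 lines cannot be set fairly against that background. Cdkn2a and Cdkn2b had 0 counts there, and Cdkn1c, named for its values, at most 1 count per library in B16F10, so these could not be called. Cdkn1b, the gene of p27, was the one that rose in all 3 lines (0.36, 0.99 and 0.91). Cdkn2a and Cdkn2b, named after their values were seen, had 0 counts in all 8 B16 libraries, which allows 0.0401 to 0.0623 CPM per library (3 counts, counting error only), whereas Melan-A held 186.6 and 187.1 CPM of Cdkn2a untreated and 214.6 and 212.2 CPM with SX-682.

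The 3 genes whose products turn over E2F proteins or their regulators, Ccnf, Skp2 and Fzr1, were lower in Melan-A and in B16F0. Ccnf and Skp2 were lower in B16F10 too. Beside these counts, 24.7%, 25.0% and 25.3% of all genes were lower in Melan-A, B16F0 and B16F10. Ccnf, the gene of cyclin F, which marks E2F activators and the atypical E2Fs for destruction, was at -1.59, -1.54 and -1.02 on the log2 scale, and Skp2 at -1.04, -0.71 and -1.23. Fzr1 changed less, by -0.09 in Melan-A (adjusted p = 0.0323), and its mean went from 87.2 to 78.5 CPM in B16F0. In B16F10 it was at 0.04 and not called (adjusted p = 0.394).

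The genes that E2Fs act on were examined through 37 G1/S targets, genes of replication licensing, nucleotide supply and fork proteins. Of these, 32 were lower and 2 higher in Melan-A, 33 lower and 1 higher in B16F0, and 35 lower and none higher in B16F10. The shares over all genes were 24.7%, 25.0% and 25.3% lower and 23.4%, 25.1% and 25.5% higher. In all 3 lines 29 (78.4%) were lower, beside 11.7% of all genes. The list medians were -0.51, -0.41 and -0.61. Among the genes lower in all 3 lines, the largest falls by the mean over the lines were those of Cdc6, a loader of the replicative helicase (-1.02, -0.90 and -1.86), and Fen1, a flap endonuclease (-0.89, -1.11 and -1.71), and the smallest those of Cdc45, a helicase subunit (-0.24, -0.23 and -0.37), and Rfc3, a clamp loader subunit (-0.19, -0.39 and -0.19). Cdt1, a licensing factor named after its values were seen, moved in the other direction, at 0.10 in Melan-A and 0.16 in B16F0 (adjusted p = 0.0141 and 2.14e-04). An E2F site was found in the window of 16 of the 31 listed genes that had one (51.6%). Among all genes with a window the share was 2.6%. Since the list was picked as E2F targets, its share is a description and no test.

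The 25 G2/M targets of MuvB complexes, genes of mitotic entry and exit that these complexes repress with Rbl1 or Rbl2 and activate with Mybl2 and Foxm1, behaved differently in the 3 lines. All 25 were lower in Melan-A and 23 in B16F0, beside 24.7% and 25.0% of all genes. In B16F10, 10 were lower and 7 higher, beside 25.3% and 25.5%. The list medians were -0.75, -0.43 and 0.01. The change was higher in the melanoma mean than in Melan-A for 25 of 25, beside 3431 of all 18338 genes tested. It was higher in B16F10 than in B16F0 for 23 of 25, beside 2811 of 18338. The change differed among the lines for 25 of 25, beside 47.4% of all genes in either direction. For the G1/S list, the change was lower in B16F10 than in B16F0 for 25 of 37 genes and higher for 4. Over all 18338 genes these counts were 2740 and 2811. In the melanoma mean minus Melan-A, the change was lower for 16 and higher for 9, beside 3128 and 3431 over all genes. Most genes of the 2 lists thus differed in opposite directions between B16F10 and B16F0, while from Melan-A to B16F0 both medians moved closer to 0.

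Examples from the G2/M list show the range. Ccnb1, the gene of cyclin B1, changed by -1.19, -0.54 and -0.22, Plk1, a mitotic kinase, by -1, -0.54 and -0.16, Top2a, a topoisomerase, by -0.70, -0.27 and -0.09 and Aurkb, another mitotic kinase, by -0.55, -0.24 and -0.25 in Melan-A, B16F0 and B16F10, each called in the 3 lines. The 7 genes higher in B16F10, named because their direction was seen, were Cdc25c, Nek2, Cdc20, Ccnb2, Cdc25b, Tpx2 and Prc1, with log2 fold changes of 0.82, 0.35, 0.30, 0.27, 0.15, 0.14 and 0.12. The untreated level of the list was lower than in Melan-A for 21 genes in B16F0 and for 25 in B16F10 (medians -0.31 and -0.65). Over all genes, 40.6% and 40.8% were lower. These untreated libraries also enter the SX-682 comparison. A CHR element was found in the window of 15 of 21 listed genes (71.4%) and an E2F site in 1 (4.76%). Among all genes with a window the shares were 20.2% and 2.6%. The list was picked as MuvB targets, so these shares describe that choice and test nothing.

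**Figure D5:**
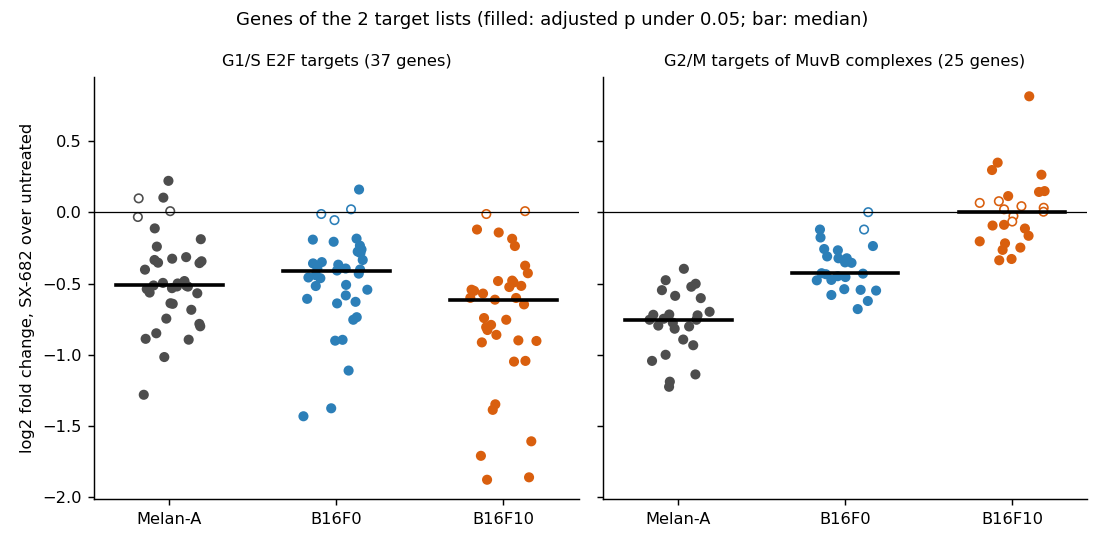
Log2 fold change of SX-682 over untreated libraries for the 37 G1/S targets (left) and the 25 G2/M targets (right) in the 3 lines; each point is a gene, filled at an adjusted p under 0.05, and black bars are medians. The G1/S medians are -0.51, -0.41 and -0.61, while the G2/M medians run from -0.75 in Melan-A to 0.01 in B16F10.

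The MuvB core and its partners were mixed. Of 8 genes, 6 were lower and 1 higher in Melan-A, 5 lower and 2 higher in B16F0 and 4 lower and 1 higher in B16F10, beside 24.7% to 25.3% of all genes lower and 23.4% to 25.5% higher. The list medians were -0.30, -0.22 and -0.15. Foxm1, which activates G2/M genes, changed by -0.73, -0.41 and -0.16, and Mybl2, its partner in earlier activation, by -0.52, -0.45 and -0.24. Rbbp4, a histone-binding subunit shared with other complexes, was at -0.19 in each line. Lin37, a core subunit needed for repression, was the gene that rose in all 3 (0.41, 0.48 and 0.91), from 8.42 and 9.28 to 17.2 and 15.99 CPM in B16F10.

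E2f6 acts in a Polycomb complex, of which 9 partner genes were listed. In Melan-A 3 of them were higher and 2 lower, in B16F0 5 higher and 4 lower, and in B16F10 3 higher and 4 lower, beside 23.4% to 25.5% of all genes in each direction; the Melan-A counts are near that background. L3mbtl2, a methyl-lysine reader of the complex, fell alongside E2f6 (-0.80, -0.60 and -0.93), as did Cbx3, a heterochromatin protein gene (-0.43, -0.24 and -0.28). The ubiquitin ligase genes Ring1 (0.37, 0.49 and 0.36) and Rnf2 (0.25, 0.57 and 0.44) rose in the 3 lines. Of 5 germline genes known to be silenced through E2f6, Stag3, Smc1b and Slc25a31 did not pass the filter on low counts in this table. Tuba3a stayed under 1 CPM in every library. Tuba3b, named after its values were seen, was at 236.5 and 234.3 CPM in untreated B16F10 and 74.5 and 75.6 CPM with SX-682 (-1.65, SE 0.0409, adjusted p = 6.36e-24), and at or under 0.0695 CPM in every Melan-A and B16F0 library. Tuba3a and Tuba3b are near-identical copies, so the split of reads between them is uncertain. E2f6 fell in the same B16F10 libraries, and its untreated means were 51.03 CPM in B16F0 and 54.23 CPM in B16F10. A link between E2f6 and the Tuba3b level was not tested.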

How the data were processed

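RNA of 3 mouse lines (Melan-A, B16F0 and B16F10), untreated or with SX-682, was sequenced as 12 libraries, which were put into 6 groups of 2 by their labels. The authors deposited whole-number read counts per gene for 34513 genes, without normalization and with replicates kept apart; the processing notes of the submitters name cutadapt, STAR, DESeq2 and the build mm10, while the counting program, the use of strand and all versions are not given in the sources used here. The identifiers of 33821 genes were found in GENCODE M21 with the same coordinates, and the gene length in the table equalled the union of exons there for each member, so CPM per kb was computed with it.

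Counts were analysed in R 4.3.3 with edgeR 4.0.16: TMM scaling (factors 0.934 to 1.08), filterByExpr (18338 genes kept), a quasi-likelihood fit of all 12 libraries with a group term (residual degrees of freedom 6, prior degrees of freedom 21.9), a prior count of 0.125 for fold changes and Benjamini-Hochberg adjustment at 0.05. The SX-682 change in each line, the pairwise differences of untreated lines, and the differences of the SX-682 change between lines were contrasts of this fit. Each standard error was computed from the fold change and its F statistic, and the script was tested on simulated data. Library totals were 48876982 to 85322092 counts. The limit of 3 counts behind a 0 covers counting error only, whereas the intervals use the spread between libraries estimated by the fit.

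The members and the gene lists were chosen with earlier results of these data known. All 10 members were named in each comparison, and of each list the 2 genes with the largest and the 2 with the smallest mean log2 fold change among those called the same way in all 3 lines; exceptions are marked, and 1 gene of the G1/S list is not reported here by name. The likeness of a gene to a member was the root mean square difference of their centred log2 CPM over the 12 libraries (prior count 2), among 10957 genes. Promoter strings were searched in RefSeq windows. Alternatives were DESeq2 1.42.0, edgeR with RLE scaling, all genes kept, a stricter minimum of 10 counts per library, a prior count of 2, a fit of each comparison's own groups, a replicate block and leaving out each library; 1 more, given where used, was chosen after seeing the data.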

Additional observations from a re-analysis of the deposited data

Results flagged for a closer look

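The size of the SX-682 response differed among the 3 lines, by an F-test of the difference itself (edgeR's quasi-likelihood test), for 8 of the 10 members, where 47.4% of all genes tested were called. The range of the log2 fold change over the lines was widest for E2f2, at 1.078 (adjusted p = 3.2e-09), with the fall in B16F10 beyond those in Melan-A and B16F0. It was 0.522 for E2f8 (adjusted p = 3.52e-04) and 0.492 for E2f7 (adjusted p = 1.22e-04), of which E2f8 fell most in Melan-A and E2f7 in B16F10. E2f1 had a range of 0.382 (adjusted p = 4.22e-07), between no call in Melan-A and a fall in B16F10. Rb1 had a range of 0.381 (adjusted p = 6.4e-04) with its smallest rise in Melan-A, and Rbl1 one of 0.252 (adjusted p = 9.48e-04) with its largest fall in Melan-A. E2f5 had a range of 0.354 (adjusted p = 0.00681), rising in Melan-A and B16F10 and not called in B16F0. The narrowest range called was that of E2f6, 0.19 (adjusted p = 0.0115), and it was not called without the second SX-682 library of Melan-A (0.184, adjusted p = 0.0634). No explanation of these differences was tested.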

How the results depend on the processing

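All 7 members lower in every line stayed lower and called in every line under each alternative run, and the replicate block left the counts of members called with SX-682 at 7, 8 and 8 lower and 2, 1 and 2 higher in Melan-A, B16F0 and B16F10 and changed no other call of a member. Same-numbered libraries of a line did not deviate together (correlations of -0.0245, 0.0455 and -0.0137 over 9650 genes), so the numbers were not taken to pair the libraries. The members called higher in B16F10 minus B16F0 were 1 rather than 2 with DESeq2, with RLE scaling and without a filter, and 0 to 2 when a library was left out; those called higher in Melan-A were 1 to 2. DESeq2 gave 0.262 (adjusted p = 0.0551) and RLE scaling 0.264 (0.0750) for E2f8, and no filter 0.295 (0.0619) for E2f5. The activator to repressor shift in Melan-A, B16F0 and B16F10 was 0.358, 0.056 and 0.001 per kb of exon and 0.835, 0.552 and 0.488 against the atypical repressors alone; with E2f2 and E2f3 alone as activators, chosen after seeing the data, it was 0.018, -0.175 and -0.255.

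Changes of sign of single members were limited to values that were not called. Untreated E2f1 in B16F0 against Melan-A was -0.008 with DESeq2, -0.007 with RLE scaling and -0.016 with at least 10 counts in every library. In B16F10 against Melan-A it was 0.016 without a filter, 0.011 in a separate fit and -0.029 to 0.035 leaving out a library, and with at least 10 counts in every library it was -0.07 and called (adjusted p = 0.0489); between the melanoma lines it was -0.053 to 0.010. SX-682 values leaving out a library were -0.055 to 0.028 for E2f1 in Melan-A and -0.007 to 0.013 for E2f5 in B16F0 (-0.001 without a filter). For E2f3 they were -0.025 to 0.048 in the melanoma mean minus Melan-A and -0.012 to 0.032 in B16F10 minus B16F0 (-0.004 with DESeq2, -0.006 with RLE scaling, -0.003 with at least 10 counts), and for E2f6 -0.031 to 0.003 in the latter. Untreated E2f6 in B16F10 against B16F0 was called in a separate fit (0.087, adjusted p = 0.0411) and in 5 of the leave-outs, and E2f5 in the melanoma mean minus Melan-A was called without the first Melan-A control (-0.30, adjusted p = 0.0242). The causes were not tested. With 2 libraries a group, the lone library left in a group is assumed to vary like the others.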

Other observations

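For each member whose group means spanned at least 1 log2 unit, the gene with the most similar profile over the 12 libraries was looked up, as a description without a test. E2f4 and Rbl1 had the closest matches, Fam120a (root mean square difference 0.0713 log2 units) and Actl6a (0.0767), and E2f4 and Rbl1 were also close to each other (0.0901), the closest pair within the family. The nearest genes were Gfod2 for E2f6 (0.0975), Slc9a3r1 for E2f3 (0.109), Ube2e2 for Rb1 (0.113), Lipa for E2f5 (0.126), Gm14418 for E2f7 (0.130), Lmnb1 for E2f8 (0.201) and Itpa for E2f2 (0.231). This measure grows with the span of the gene itself, which was widest for E2f2 and E2f8. Within the family, E2f5 and E2f8 were the furthest apart (1.25), and E2f3 and E2f6, an activator and a repressor, were closer to each other (0.244) than E2f3 was to the other activators E2f1 (0.322) and E2f2 (0.741).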
